A study of Macaca mulatta with 24 samples.

Results

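Testosterone was compared with control treatment in female rhesus macaques kept on monkey chow, and 12 of the 24 animals sequenced by RNA-seq belong to this comparison. The controls (*C*, replicates 1 to 6) carried cholesterol implants, and the hyperandrogenemic animals (*T*, replicates 13 to 18) carried testosterone implants, in both cases for 3 years. The animals of each group were taken by their condition label, with earlier results of these data known. The labels give all animals an age of 4 years, and the study's methods give an older age at biopsy. Each library comes from a biopsy of omental white adipose tissue (WAT), a visceral fat depot, taken from 1 animal, which the labels place in year 3 of treatment. The study describes the sequenced animals as chosen to represent the metabolic findings of their group, which limits how far the spread between them stands for the spread among all treated animals. The other 12 animals received a Western-style diet without testosterone (*WSD*, replicates 19 to 24) or with it (*T* + *WSD*), and enter here only to set the effect of testosterone on chow beside its effect on the other diet.

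Testosterone is a steroid hormone that acts largely on transcription, and fat tissue both responds to androgens and converts them with its own enzymes. Omental fat is a mixture of adipocytes, progenitors, vascular cells and immune cells under a covering of mesothelium. Adipocytes store triglyceride, release it by lipolysis under adrenergic and cAMP control, and can make fatty acids from glucose by de novo lipogenesis. The effects of androgens on visceral fat are of interest because hyperandrogenemia marks polycystic ovary syndrome.

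Total counts ran from 8873248 to 28270776 per library over *C* and *T* (median 20779252). In 2 *C* libraries (replicates 1 and 2) and 2 *T* libraries (replicates 13 and 14) the gene ENSMMUG00000038258 alone, which has no symbol, accounted for 9.92% to 40.2% of counts, against 0.879% to 2.51% in the other 8. Expression is given as CPM, the counts of a gene scaled to the library total after TMM normalization, and these values are compared between animals and not between genes. Adipocyte markers were well expressed in all 12 animals, with a sum over the 14 tested markers of 4430 to 33645 CPM, so that the tissue label held. *C* replicate 1 stood apart, with a mean of 7.12 log2 CPM over these markers against 9.16 to 9.81 in the other controls and 9.18 to 10.2 in *T*. The same animal had the highest mean of the mesothelial markers (7.89 log2 CPM, against 5.91 to 7.17 in the other 11). Fewer cells of a type and less RNA per cell cannot be told apart in such bulk samples.

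To ask which genes testosterone alone altered, all 24 animals were fitted together with edgeR's quasi-likelihood test and *T* was set against *C* over 15207 genes. No gene (0%) reached an adjusted p under 0.05 with a fold change over 1.5, the rule for a differentially expressed gene (DEG). The smallest edgeR adjusted p was 0.0766, shared by ANKRD10, a gene annotated as Y_RNA and ENSMMUG00000022084, a gene without a symbol named after its value was seen. Without *C* replicate 2 the Y_RNA gene was called, and without *C* replicate 5 LUC7L3 was called, with edgeR adjusted p values of 0.0466 and 0.0441. Over all edgeR alternatives these values ran from 0.0466 to 0.530 for the Y_RNA gene and from 0.0441 to 0.721 for LUC7L3. There were 1312 genes with an unadjusted p under 0.05 (8.63%), 539 higher (3.54%) and 773 lower (5.08%) in *T*. Without *C* replicate 1 this number was 869. In the 8 libraries with a low share of ENSMMUG00000038258 the direction was more even, with 797 genes higher and 757 lower. Among these 1312 genes, 154 were higher and 414 lower by more than 1.5-fold. The median log2 fold change over all tested genes was -0.02. All 6 *T* animals lay above every control in 21 genes (0.138%) and below every control in 19 (0.125%).

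**Figure D1:**
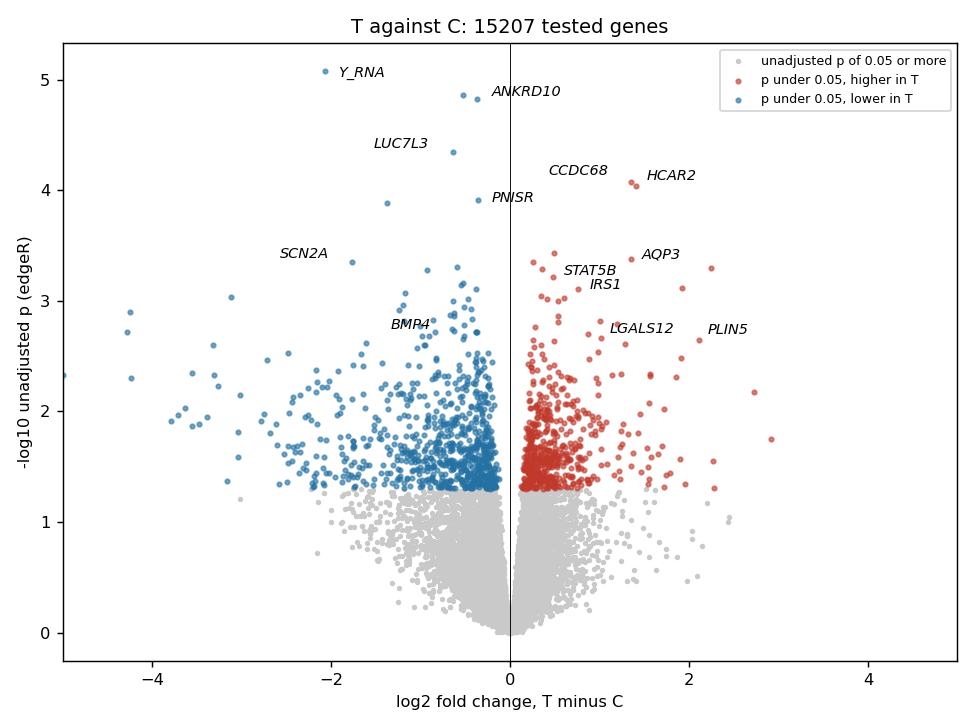
Log2 fold change of *T* over *C* (horizontal axis) against the negative log10 of the unadjusted edgeR p (vertical axis) for the 15207 tested genes, of which 3 lie outside the horizontal range. Red points are the 539 genes higher and blue points the 773 genes lower in *T* at an unadjusted p under 0.05, and the lower genes reach further from 0.

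With DESeq2's Wald test, 7 of the 24157 genes given an adjusted p were called (0.029%), 3 higher and 4 lower in *T*. The higher genes were HCAR2, CCDC68 and ENSMMUG00000018314, and the lower were LUC7L3, the Y_RNA gene, ENSMMUG00000012808 and ENSMMUG00000045979. ENSMMUG00000045979 had 1088 and 1186 counts in *C* replicates 3 and 5 and 0 in the other 10 animals, and edgeR's filter on low counts left it out. ENSMMUG00000018314 was carried by *T* replicates 14 and 15, at 11.5 and 12.6 CPM, while the other 4 *T* animals lay between 1.09 and 1.79 CPM and the controls between 0.450 and 1.48. ENSMMUG00000012808 lay between 3.78 and 8.17 CPM in *C* and between 1.17 and 3.35 in *T*, without overlap (log2 fold change -1.38, standard error (SE) 0.30, adjusted p by edgeR = 0.249).

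**Figure D2:**
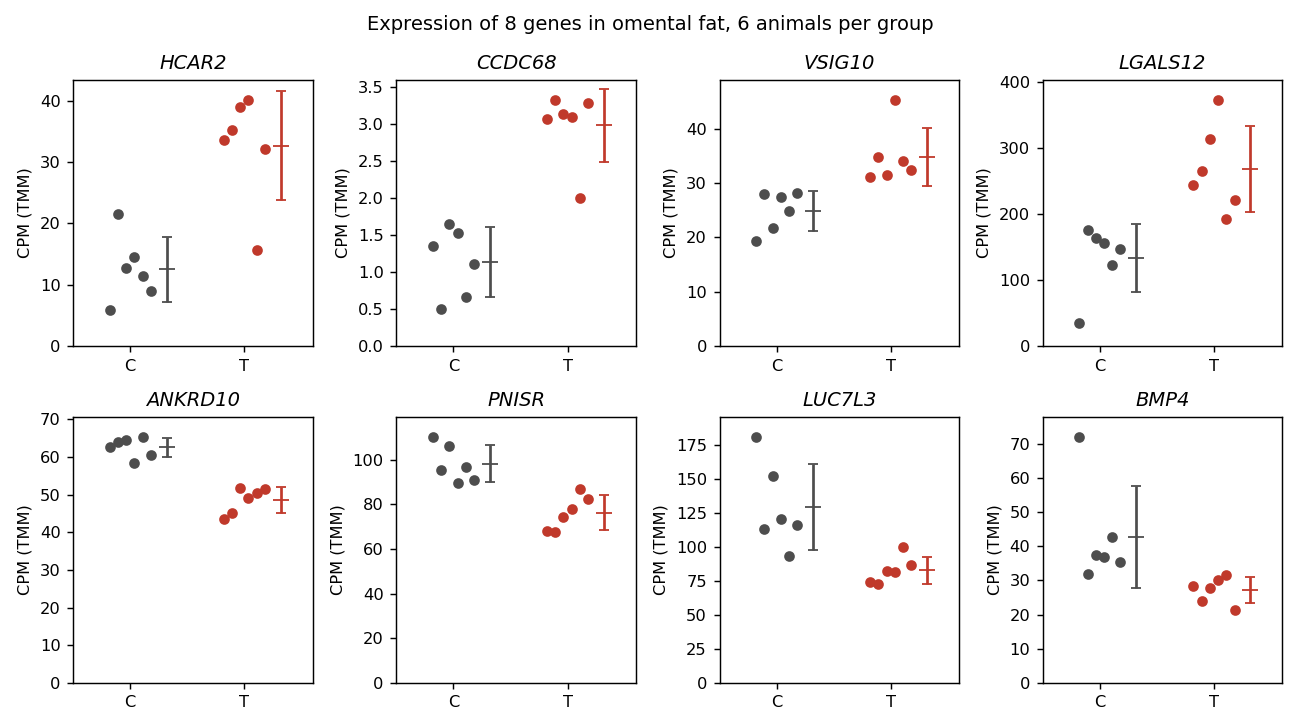
CPM of 8 named genes in each *C* (grey) and *T* (red) animal, with the mean and SD of 6 animals beside the points, on axes that start at 0. *HCAR2*, *CCDC68*, *VSIG10* and *LGALS12* were higher and *ANKRD10*, *PNISR*, *LUC7L3* and *BMP4* lower in *T*, and the groups overlap only in *HCAR2* and *LUC7L3*, by 1 *T* animal each.

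As whole profiles the groups were not separated. Over the 500 most variable genes of the 12 animals, the pseudo-F, the ratio of distances between and within groups, was 1.02 (exact one-sided permutation test over all splits of the animals, p = 0.407). The first principal component held 28.6% of the variance and ran from -17.7 to 32.8 in *C* and from -18.2 to 16.03 in *T*. The groups differed in how far their animals lay from one another. The mean distance of an animal to its group centre was 30.03 in *C* and 21.5 in *T*, in units of variance-stabilized expression, a difference of -8.55 (exact two-sided permutation test, p = 0.00433, and 0.0173 after Benjamini-Hochberg adjustment over the 4 tests on profiles). When 1 animal at a time was left out, the same exact test gave p values from 0.00216 to 0.0368, and without *C* replicate 1 the distances were 26.2 and 20.2 (p = 0.0346, exact). Within the 8 libraries with a low share of ENSMMUG00000038258 they were 25.8 and 19.1 (p = 0.0286, exact, the smallest that its 70 splits allow). On the second component (17.6% of variance) all *T* animals lay between 0.820 and 8.46, inside the *C* range of -29.6 to 12.996. Of 47 gene lists for cell types and pathways, 33 had a smaller SD over animals in *T* than in *C*. The means of the de novo lipogenesis list, for instance, ran from 5.42 to 8.59 log2 CPM in *C* and from 6.79 to 7.40 in *T*.

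**Figure D3:**
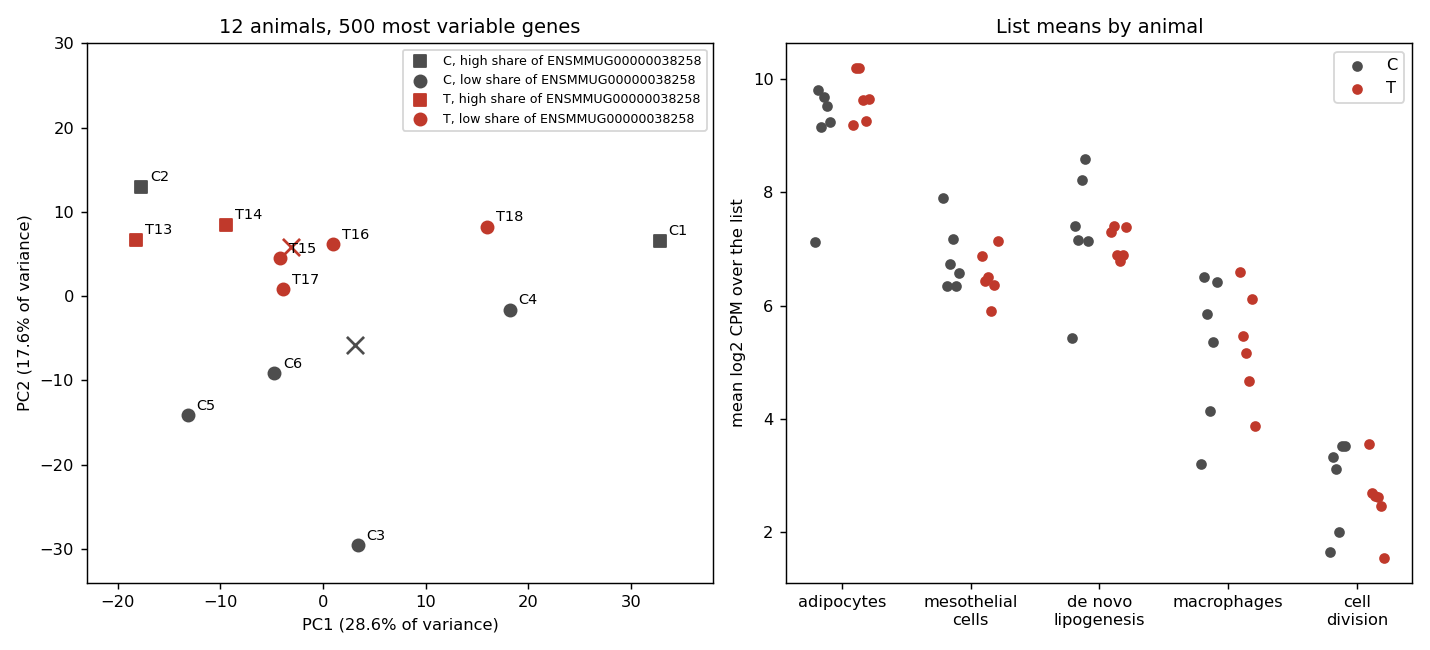
Left, position of each animal on PC1 and PC2 of the 500 most variable genes (unitless scores), with crosses at the group means and squares for libraries with a high share of ENSMMUG00000038258. Right, mean log2 CPM of 5 gene lists in each animal, where the *T* animals (red) span a narrower range than *C* (grey) for adipocyte and de novo lipogenesis genes and *C* replicate 1 is the lowest *C* animal for adipocyte genes.

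Adipocyte genes were measured higher in *T*. Of the 14 tested adipocyte markers 14 had a positive log2 fold change, with a median of 0.36 beside -0.02 for all genes. An unadjusted p under 0.05 was reached by 5 of them (35.7%, beside 8.63% of all tested genes). LGALS12, which encodes a galectin of the lipid droplet surface, ran from 34.5 to 176 CPM in *C* (median 152) and from 193 to 374 in *T* (median 255), so that all *T* animals lay above every control (log2 fold change 1.01, SE 0.29, adjusted p by edgeR = 0.519). ADIPOQ, the insulin-sensitizing hormone adiponectin, ran from 498 to 1358 CPM in *C* and from 907 to 2124 in *T*, with 4 *T* animals above every control (log2 fold change 0.79, SE 0.32). LIPE, the hormone-sensitive lipase, had a log2 fold change of 0.77 (SE 0.31), and the other 2 at an unadjusted p under 0.05 were the activin receptor gene ACVR1C (0.53) and the glycerol channel gene AQP7 (0.61), named after their values were seen. The leptin gene LEP gave the smallest difference of the list, with 4.39 to 673 CPM in *C* and 42.9 to 815 in *T* (log2 fold change 0.06, SE 0.71).

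The low adipocyte level of *C* replicate 1 moved with this list. Without that animal 11 of the 14 markers were higher and 3 had an unadjusted p under 0.05, with a median of 0.13. Without *C* replicate 6 that number was also 3, and without *T* replicate 15 or 16 it was 2. With the mean of these same markers (the adipocyte mean) as a covariate, chosen after seeing the data, 702 of all tested genes had an unadjusted p under 0.05. The median of the list was then -0.09, which is near 0 by construction and says nothing about the markers. For other lists and genes that share markers with this mean or vary with it over animals, a loss of difference is also partly built in. LGALS12 kept a log2 fold change of 0.82 without *C* replicate 1. Mesothelial markers went the other way, with 1 of 13 higher and 12 lower (median -0.45), and 1 of them, PKHD1L1, a gene of a large membrane protein, at an unadjusted p under 0.05 (log2 fold change -0.91, SE 0.43, and -0.41 without *C* replicate 1 and -0.26 in the low-share libraries). Without *C* replicate 1, 6 markers were higher and 7 lower (median -0.02). The part of cell composition in the gene results was not tested further.

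Lipolysis and lipid droplet genes were likewise mostly higher in *T*, 15 of 17, with a median of 0.34. An unadjusted p under 0.05 was reached by 5 (29.4%, beside 8.63% of all tested genes). The median was 0.13 without *C* replicate 1, and 0.0083 with the adipocyte mean as a covariate, where 1 gene had an unadjusted p under 0.05. The number at that level was 2 without *C* replicate 1, 5 or 6 or without *T* replicate 15 or 16. PLIN5, a droplet protein that ties droplets to mitochondria, ran from 0.248 to 1.81 CPM in *C* (median 0.401) and from 1.49 to 5.19 in *T* (median 2.54). Its log2 fold change was 2.11 (SE 0.61, adjusted p by edgeR = 0.519), with 4 *T* animals above every control, and 2.58 in the libraries with a low share of ENSMMUG00000038258. ABHD5, the coactivator of adipose triglyceride lipase, had a log2 fold change of 0.40 (SE 0.18).

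The receptors that restrain or start lipolysis, with their G proteins, gave 12 higher and 4 lower of 16 (median 0.19). At an unadjusted p under 0.05 was 1 in each direction (12.5%, beside 8.63% of all tested genes). HCAR2, the niacin and beta-hydroxybutyrate receptor that lowers cAMP and lipolysis, ran from 5.79 to 21.5 CPM in *C* (median 12.1) and from 15.6 to 40.2 in *T* (median 34.4). In *T*, 5 animals lay above every control and replicate 17 lay inside their range. The log2 fold change of 1.41 stayed between 1.11 and 1.62 in all alternatives, and its edgeR adjusted p of 0.231 stood against a DESeq2 adjusted p of 0.00932. PTGER3, a prostaglandin E2 receptor that also lowers cAMP, was the lower gene, with 119 to 215 CPM in *C* and 85.6 to 140 in *T* (log2 fold change -0.38, SE 0.16). Over the edgeR alternatives the HCAR2 adjusted p ran from 0.0946 to 0.698. The HCAR2 symbol came from identifier and name pairs in the study's supplementary tables. HCAR1 and HCAR3, the other receptors of the HCAR family, had no identifier in the name tables used here.

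In the insulin signalling and glucose transport list 22 of 29 genes were higher (median 0.10), with 2 higher and 1 lower at an unadjusted p under 0.05 (10.3%, beside 8.63% of all tested genes). IRS1, the docking protein of the insulin receptor, ran from 58.0 to 121 CPM in *C* (median 89.1) and from 120 to 244 in *T* (median 142), with 5 *T* animals above every control (log2 fold change 0.76, SE 0.20, adjusted p by edgeR = 0.512). STAT5A and STAT5B, which carry growth hormone and prolactin signals to the nucleus and promote adipogenesis, had log2 fold changes of 0.53 (SE 0.14) and 0.48 (SE 0.12). STAT5B lay between 34.2 and 48.8 CPM in *C* and between 48.0 and 79.4 in *T*, with 5 *T* animals above every control. The growth hormone receptor gene GHR and the insulin receptor gene INSR had log2 fold changes of 0.38 and 0.31 (SEs 0.17 and 0.14), and TBC1D1, a Rab GTPase-activating protein of glucose transporter traffic, -0.28 (SE 0.11). In the libraries with a low share of ENSMMUG00000038258 the values were 0.86 for IRS1, 0.53 for STAT5A, 0.58 for STAT5B, 0.49 for GHR and 0.49 for INSR. Without *T* replicate 16 IRS1 stood at 0.59, STAT5B at 0.37 and INSR at 0.18, and with the adipocyte mean as a covariate GHR stood at 0.22.

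Adipogenic transcription factors were higher in 19 of 23 cases (median 0.24). At an unadjusted p under 0.05 were 3 higher and 1 lower (17.4%, beside 8.63% of all tested genes). Without *C* replicate 2 these were 6 and 1, without *C* replicate 5 they were 5 and 1, and without *C* replicate 1 or *T* replicates 13, 14 or 15 they were 2 and 0. With the adipocyte mean as a covariate the median was 0.06. The lower gene was ID3, an inhibitor of helix-loop-helix factors (log2 fold change -0.49, SE 0.22), and PPARG, the master regulator of fat cell formation, had a log2 fold change of 0.30 (SE 0.28, adjusted p by edgeR = 0.779). The triglyceride synthesis list was higher in 11 of 15 (median 0.17), with the phosphatidate phosphatase gene LPIN3 at 0.96 (SE 0.31) and the acyltransferase gene GPAT4 at 0.17 (SE 0.07). GPAT4 did not reach an unadjusted p under 0.05 in 9 of 25 alternatives. Fatty acid uptake and binding genes gave 12 higher and 7 lower (median 0.14). Without *T* replicate 14 the medians were 0.05 for triglyceride synthesis and 0.013 for uptake, and with the adipocyte mean as a covariate -0.06 and -0.04. Without *C* replicate 1 they were 0.06 and -3.65e-05, and PPARG stood at 0.11. Of these the transporter gene SLC27A1 stood at 0.41 (SE 0.17). ANGPTL8, an insulin-responsive inhibitor of lipoprotein lipase, ran from 0.281 to 41.1 CPM in *C* and only from 1.87 to 9.27 in *T* (log2 fold change -1.76, SE 0.71).

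De novo lipogenesis ran against the other fat cell genes. Of its 15 tested genes 13 were lower in *T*, with a median of -0.45. An unadjusted p under 0.05 was reached by 3, all lower (20%, beside 8.63% of all tested genes). ACLY, ATP citrate lyase, which supplies cytosolic acetyl-CoA, lay between 176 and 1924 CPM in *C* (median 266) and between 127 and 395 in *T* (median 196). The groups overlap, and the highest controls were replicates 4 and 5 (log2 fold change -1.33, SE 0.62, and -0.51 without replicate 5). ME1, the malic enzyme that provides NADPH, had a log2 fold change of -1.27 (SE 0.53), and MID1IP1, a partner of acetyl-CoA carboxylase, -0.98 (SE 0.46), or -0.82 without *C* replicate 5 and -0.34 without *C* replicate 4, in that order. With *C* replicates 1, 4 and 5 left out in turn the median of the list was -0.70, -0.27 and -0.10. Without *T* replicate 15 or 16 or *C* replicate 5 there were 0 genes at an unadjusted p under 0.05 by edgeR, without *C* replicate 4 there was 1, without *T* replicate 13, 14 or 17 there were 2, and without *C* replicate 1 there were 5, all lower genes at an unadjusted p under 0.05. On the Western-style diet the list had a median of -1.22 for *T* + *WSD* against *WSD*, with 9 lower genes at an unadjusted p under 0.05. In that comparison 19.98% of all tested genes reached this level, in either direction.

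Of 22 cholesterol synthesis genes 18 were lower (median -0.16), with 1 higher and 1 lower at an unadjusted p under 0.05 (9.09%, near the 8.63% of all tested genes). Leaving out *C* replicates 1, 4, 5 and 6 in turn gave medians of -0.26, -0.076, -0.083 and -0.28. EBP, a sterol isomerase of the pathway, ran from 17.7 to 36.5 CPM in *C* (median 27.0) and from 11.6 to 21.2 in *T* (median 13.9), with 5 *T* animals below every control (log2 fold change -0.80, SE 0.31, adjusted p by edgeR = 0.547). TM7SF2, a sterol reductase of the same pathway, was measured higher in *T* at 0.51 (SE 0.24). Among cholesterol efflux and lipoprotein genes 9 of 13 were higher (median 0.19), with the lipid transfer protein gene CETP at 1.23 (SE 0.49) and the sterol exporter gene ABCG1 at 1.16 (SE 0.52).

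Mitochondrial genes were mostly higher in *T* on chow and mostly lower in *T* + *WSD* on the Western-style diet. In *T* against *C* 27 of 29 genes of fatty acid oxidation and the TCA cycle were higher (median 0.19), 2 of them at an unadjusted p under 0.05 (6.897%, below the 8.63% of all tested genes), the trifunctional protein gene HADHA at 0.36 and the electron transfer gene ETFB at 0.36 (SEs 0.15 and 0.17). The number at that level was 9 without *C* replicate 2, 6 without *T* replicate 17, 1 without *C* replicate 5 or *T* replicate 15 or 18, and 0 without *C* replicate 1 or 6 or *T* replicate 14. In *T* + *WSD* against *WSD* 1 of the 29 was higher and 18 were lower at an unadjusted p under 0.05 (median -0.52). Of all tested genes 19.98% reached this level in that comparison, in either direction. Nuclear-encoded respiratory chain subunits were higher in 34 of 43 in *T* (median 0.11), with 0 at an unadjusted p under 0.05 by edgeR, and higher in 0 of 43 in *T* + *WSD*, with 39 lower at an unadjusted p under 0.05 (median -0.59). By edgeR's interaction test 0 genes of these lists had an adjusted p under 0.05 and 22 of the 29 and 33 of the 43 an unadjusted p under 0.05. Of all 15207 tested genes 2050 reached the latter level in that test. Without *C* replicate 1 the medians on chow were 0.09 and 0.02, without *T* replicate 14 that of fatty acid oxidation was 0.10, with the adipocyte mean as a covariate they were -0.02 and -0.06, and with the low-share libraries alone 0.05 and -0.09.

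**Figure D4:**
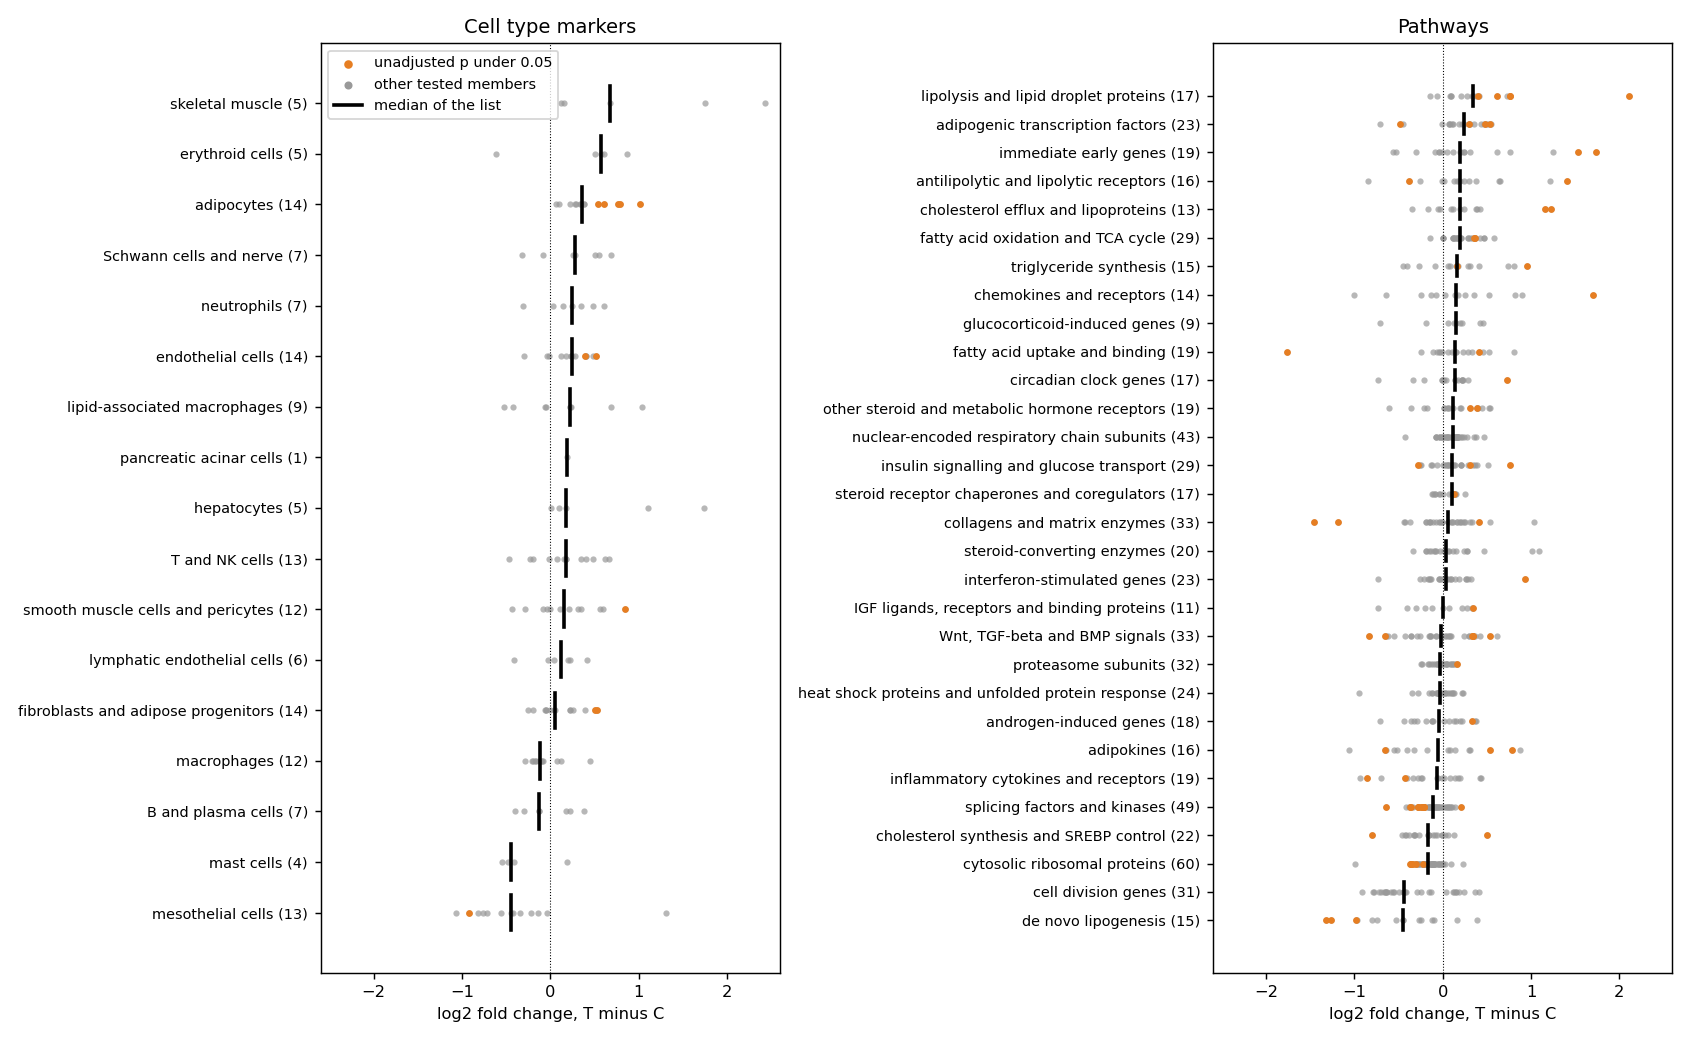
Log2 fold change of *T* over *C* for the tested members (points, number in brackets) of 17 cell type lists and 30 pathway lists, with the median of each list as a black bar and members at an unadjusted p under 0.05 in orange. Adipocyte and lipolysis genes lie mostly right of 0 (medians 0.36 and 0.34), and de novo lipogenesis genes and mesothelial markers mostly left (both -0.45).

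Of 49 splicing factors and their kinases 38 were lower in *T* (median -0.11), 10 of them at an unadjusted p under 0.05, where 1, SRSF4, was higher at that level. In either direction this is 22.4% of the list, beside 8.63% of all tested genes. When 1 animal at a time was left out, the number at that level in either direction was 8 to 14. In the low-share libraries it was 7, where 1554 of all 15448 tested genes were at that level. LUC7L3, a U1 snRNP-associated factor, ran from 93.4 to 181 CPM in *C* (median 118) and from 72.5 to 99.9 in *T* (median 81.9), with 5 *T* animals below every control (log2 fold change -0.64, SE 0.13, adjusted p by edgeR = 0.170). Its relative LUC7L gave -0.28 (SE 0.10), and LUC7L2 -0.08 (SE 0.07). PNISR, an SR-related protein, ran from 89.4 to 110 CPM in *C* and from 67.6 to 86.8 in *T*, with all *T* animals below every control (log2 fold change -0.36, SE 0.08, adjusted p by edgeR = 0.249). SREK1, another SR-related factor, gave -0.37 (SE 0.11). In the low-share libraries LUC7L3 stood at -0.46, PNISR at -0.25 and SREK1 at -0.22. Without *C* replicate 1, the highest control for each of them, they stood at -0.52, -0.33 and -0.29. The other 6 lower genes at an unadjusted p under 0.05, named after their values were seen, were RBM25 (-0.24), RBM39 (-0.25), SRSF5 (-0.28), TRA2A (-0.22), TRA2B (-0.21) and the kinase gene CLK2 (-0.21).

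CCNL2, a cyclin of the splicing machinery, lay between 63.5 and 95.5 CPM in *C* and between 52.7 and 73.3 in *T* (log2 fold change -0.38, SE 0.10). TTC14, a tetratricopeptide repeat gene, gave -0.47 (SE 0.12). In the low-share libraries CCNL2 and TTC14 both stood at -0.30. ANKRD10, an ankyrin repeat gene, ran from 58.5 to 65.4 CPM in *C* and from 43.4 to 51.7 in *T*, with no overlap (log2 fold change -0.37, SE 0.07, adjusted p by edgeR = 0.0766).

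Among small RNAs, the Y_RNA gene ENSMMUG00000028452, one of many near-identical copies of a class bound by the Ro60 protein, ran from 8.70 to 29.97 CPM in *C* (median 14.7) and from 2.32 to 6.87 in *T* (median 4.10), without overlap (log2 fold change -2.07, SE 0.36). SNORA53, a guide of RNA pseudouridylation, gave -0.93 (SE 0.23), SNORD14, a guide of RNA methylation, -1.17 (SE 0.31), and RF00564, named by its RNA family alone, -1.20 (SE 0.32). The microRNA genes MIR5047 and MIR3064 gave -0.52 and -0.64 (SEs 0.13 and 0.17). These values are uncertain, since reads of near-identical copies and of genes that hold a small RNA cannot be told apart where the counting tool and its strand setting are not given in the sources used here. SCN2A, a neuronal sodium channel gene at low counts, lay between 0.164 and 1.68 CPM in *C* and between 0.145 and 0.374 in *T* (log2 fold change -1.77, SE 0.43).

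Other genes with the smallest p among those higher in *T* had no common list. CCDC68, a coiled-coil protein of the centrosome, ran from 0.492 to 1.64 CPM in *C* and from 1.997 to 3.32 in *T*, all above every control (log2 fold change 1.36, SE 0.28, adjusted p by edgeR = 0.231). VSIG10, a membrane protein with immunoglobulin domains, lay between 19.3 and 28.2 CPM in *C* and between 31.2 and 45.4 in *T* (log2 fold change 0.49, SE 0.12), and FLYWCH1, a zinc finger protein, between 29.2 and 35.7 in *C* and between 36.6 and 45.9 in *T* (log2 fold change 0.35, SE 0.09). Neither overlapped between groups. AQP3, a water and glycerol channel, gave 1.35 (SE 0.33), DENND3, an exchange factor for a Rab GTPase of membrane traffic, 0.60 (SE 0.16) and AP4B1, a subunit of a vesicle adaptor, 0.41 (SE 0.11). RDH11, a retinol dehydrogenase, stood at 0.34 (SE 0.09) and POLDIP3, an adaptor of mRNA translation, at 0.26 (SE 0.06).

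Whether the effect of testosterone depended on diet was tested by the interaction of treatment and diet, which sets *T* + *WSD* against *WSD* beside *T* against *C*, with no animal shared. The test called 44 genes (0.289% of those tested) at an edgeR adjusted p under 0.05. In all 44 the fold changes had opposite signs on the diets, 36 of them lower in *T* on chow and higher in *T* + *WSD*. On chow 35 had an unadjusted p under 0.05. Selection by the interaction favours opposite signs and large fold changes on chow, so these counts are not a result apart from it. ANKRD10 had means of 62.6 ± 2.59 (*C*), 48.5 ± 3.48 (*T*), 49.2 ± 3.41 (*WSD*) and 65.5 ± 5.81 CPM (*T* + *WSD*, SD of 6 animals each), an interaction of 0.78 on the log2 scale (adjusted p by edgeR = 0.000461). PNISR and the Y_RNA gene likewise had lower means in *T* and *WSD* than in *C* and *T* + *WSD*, with interactions of 0.79 and 3.46 (adjusted p by edgeR = 0.00109 and 0.00179). For the Y_RNA gene the means were 18.01 ± 8.23, 4.30 ± 1.66, 4.96 ± 2.43 and 12.7 ± 5.31 CPM in the same order of groups.

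LUC7L3, SREK1 and CCNL2 were also among these genes (interactions 1.0001, 0.69 and 0.69), as were MIR5047, MIR3064 and SCN2A (1.15, 1.20 and 2.93). In the splicing list 3 of 49 genes were called in the interaction. On the Western-style diet 7 were higher and 10 lower with testosterone at an unadjusted p under 0.05, beside 19.98% of all tested genes in either direction. TM7SF2 and CETP went the opposite way, higher in *T* on chow and lower in *T* + *WSD*, with interactions of -1.75 and -3.36 (adjusted p by edgeR = 0.0337 and 0.0417). Other interaction genes, named after their values were seen, were OGT, the enzyme that adds N-acetylglucosamine to nuclear proteins (log2 fold change -0.26 on chow and 0.49 on the Western-style diet), and NKTR, a cyclophilin with SR repeats (-0.20 and 0.28).

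The number of interaction genes moved with single animals. Leaving out *C* replicate 1 gave 11, *C* replicate 3 or 5 gave 15 and *C* replicate 6 gave 21. Leaving out *T* replicates 13, 14, 15, 16 and 18 gave 15, 16, 17, 22 and 19 in turn. None (0) was called in the libraries with a low share of ENSMMUG00000038258. All 44 kept their direction there and had an unadjusted interaction p under 0.05 by edgeR. These libraries are part of those by which the 44 were selected, so this gives no separate support. Mesothelial markers were lower in *T* + *WSD* than in *WSD*, 13 of 13 with 9 at an unadjusted p under 0.05. Of all tested genes 19.98% reached this level there, in either direction. With the mean of the mesothelial markers as a covariate 16 interaction genes were called.

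**Figure D5:**
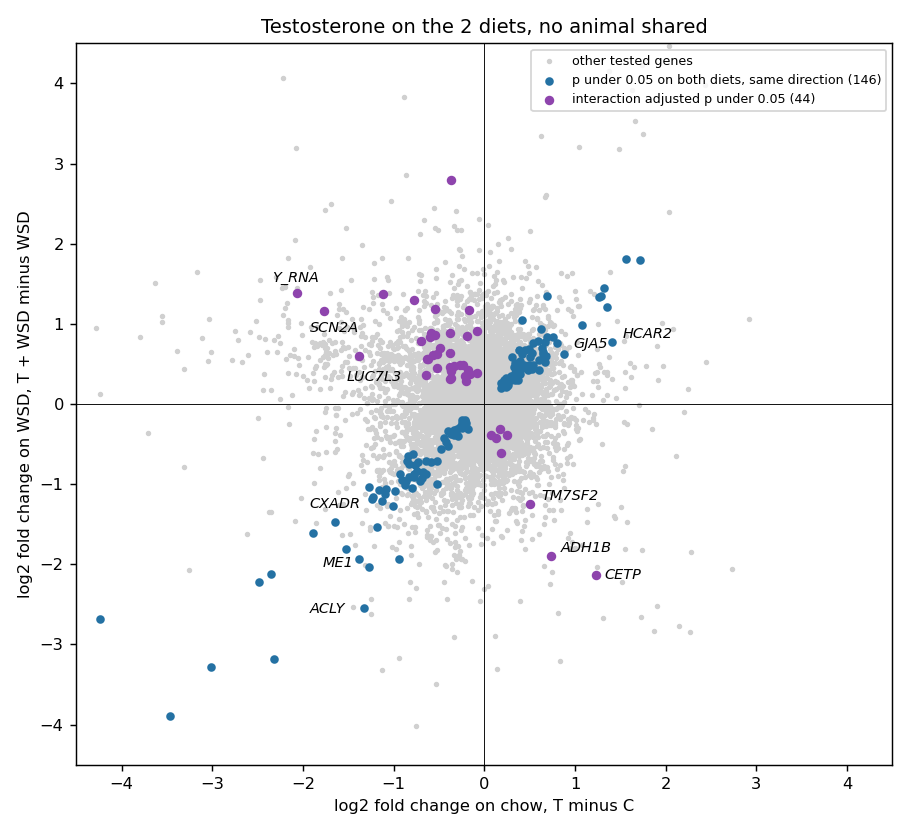
Log2 fold change for testosterone on chow (*T* minus *C*, horizontal axis) against that on the Western-style diet (*T* + *WSD* minus *WSD*, vertical axis) for the tested genes within the plotted range. The 44 interaction genes (purple) lie in the quadrants of opposite sign, which their selection favours. The 146 genes at an unadjusted p under 0.05 with the same sign on both diets (blue) lie in the other quadrants by their selection.

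Over all tested genes the fold changes on the diets were almost unrelated, with r = 0.04 across genes, which are not independent replicates, and 53.9% of genes with the same sign. Of the 1312 genes at an unadjusted p under 0.05 on chow 676 (51.5%) had the same sign on the Western-style diet. An unadjusted p under 0.05 on both diets was reached by 273 genes, 74 higher in both, 72 lower in both and 127 with opposite signs. These are 20.8% of the 1312, near the 19.98% of all tested genes that reached this level on the Western-style diet. The 146 of equal sign are 11.1% of the genes at that level on chow and 4.80% of the 3039 on the Western-style diet.

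As a description of single genes of equal sign, HCAR2 had log2 fold changes of 1.41 on chow and 0.78 on the Western-style diet (edgeR interaction adjusted p = 0.543), and DENND3 0.60 and 0.43. The lipogenic genes ACLY (-1.33 and -2.54), ME1 (-1.27 and -2.03) and MID1IP1 (-0.98 and -1.09) and the sterol gene EBP (-0.80 and -1.05) were lower on both. WNT2B, a Wnt ligand, stood at -0.84 and -0.65, PECAM1, an adhesion molecule of endothelium, at 0.39 and 0.45, and IGF2R, the receptor that clears insulin-like growth factor 2, at 0.34 and 0.38. Named after their values were seen, GJA5 and NOS3, the connexin 40 and nitric oxide synthase genes of arterial endothelium, were higher on both diets (0.88 and 0.63, and 0.67 and 0.53). GJA5 lay between 14.1 and 24.5 CPM in *C* and between 26.4 and 54.2 in *T*, without overlap. CXADR, a junction protein of epithelia and mesothelium, was lower on both (-1.13 and -1.21).

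Of 17 chaperones and coregulators of steroid receptors 11 were higher and 6 lower (median 0.10), with 1 at an unadjusted p under 0.05, the histone demethylase gene KDM1A (0.13, SE 0.06). KDM1A did not reach that level in 13 of 25 alternatives. Of 18 genes known to be induced by androgens in prostate and other tissues 9 were higher and 9 lower (median -0.05). In that list CAMKK2, a calcium-dependent kinase, was at an unadjusted p under 0.05 (log2 fold change 0.33, SE 0.15). CAMKK2 stood at 0.10 in the low-share libraries and did not reach that level in 11 of 25 alternatives. FKBP5, a chaperone induced through steroid receptors, stood at 0.15 (SE 0.32, adjusted p by edgeR = 0.926). Steroid-converting enzymes gave 11 higher and 9 lower (median 0.04) with 0 at an unadjusted p under 0.05 by edgeR. Among them SRD5A1, a 5-alpha reductase gene, stood at -0.19 (SE 0.25) and HSD11B1, which regenerates cortisol, at 0.15 (SE 0.47). CYP19A1, the aromatase gene, had 1 to 56 counts per animal and did not pass the filter on low counts. Other steroid and metabolic hormone receptors were higher in 15 of 19 (median 0.12). An unadjusted p under 0.05 was reached by 2 of them (10.5%, near the 8.63% of all tested genes). In the low-share libraries the median was 0.32 with 9 at that level, where 1554 of all 15448 tested genes reached it. In the same list ESR1, the estrogen receptor alpha gene, stood at -0.21 (SE 0.22).

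Signals that pattern fat progenitors were mixed, 16 higher and 17 lower of 33 Wnt, TGF-beta and BMP genes (median -0.02). At an unadjusted p under 0.05 were 4 higher and 2 lower (18.2%, beside 8.63% of all tested genes). BMP4, which commits progenitors to the fat lineage, ran from 31.8 to 72.1 CPM in *C* (median 37.1) and from 21.3 to 31.7 in *T* (median 28.0), without overlap (log2 fold change -0.65, SE 0.18, adjusted p by edgeR = 0.519). Without *C* replicate 1, the highest control, it was -0.44. WNT2B lay between 41.8 and 122 CPM in *C* and between 27.5 and 63.5 in *T*, with 5 *T* animals below every control, and LRP5, a Wnt coreceptor, gave 0.34 (SE 0.12). Collagens and matrix enzymes divided 17 to 16 (median 0.05). The basement membrane chains COL4A3 and COL4A4, whose genes share a promoter region, stood at -1.45 and -1.19 (SEs 0.56 and 0.48), and the matrix protease gene MMP14 at 0.41 (SE 0.17). Of 11 insulin-like growth factor genes 6 were higher (median 0.00), and of 16 adipokines 8 (median -0.06).

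Vascular, stromal and nerve marker lists had medians between 0.05 and 0.28. Endothelial markers were higher in 11 of 14 (median 0.24), with ESAM and PECAM1, both junctional adhesion molecules, at 0.51 and 0.39 (SEs 0.19 and 0.16). The endothelial median ran from 0.10, with the adipocyte mean as a covariate, to 0.34, without *C* replicate 4. The summed endothelial level lay above every control in 4 *T* animals. In *T* + *WSD* against *WSD* 14 of the 14 endothelial markers were higher. Smooth muscle and pericyte markers were higher in 7 of 12 (median 0.16), with the actin gene ACTA2 at 0.84 (SE 0.35). Fibroblast and progenitor markers were higher in 8 of 14 (median 0.05), where the actin-binding protein gene GSN and the complement factor D gene CFD stood at 0.50 and 0.53. Of 25 alternatives, CFD did not reach an unadjusted p under 0.05 in 13, GSN in 8 and ACTA2 in 6. Lymphatic endothelial markers gave a median of 0.12 and Schwann cell markers 0.28, with 0 genes in each at an unadjusted p under 0.05 by edgeR. With 1 animal left out the fibroblast median ran from -0.06, without *C* replicate 1, to 0.23. The lymphatic median ran from -0.18, without *T* replicate 17, to 0.32, and the Schwann cell median from -0.09, without *T* replicate 18, to 0.45. That of smooth muscle and pericytes ran from 0.02 to 0.33.

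Immune lists held few low p values. Macrophage markers were lower in 9 of 12 (median -0.12) and lipid-associated macrophage markers higher in 5 of 9 (median 0.23), with 0 at an unadjusted p under 0.05 by edgeR. The same count of 0 held for T and NK cells (median 0.17), B and plasma cells (-0.12), mast cells (-0.44) and neutrophils (0.24). With 1 animal left out the macrophage median ran from -0.44 to 0.12 and was positive without *C* replicate 2 or 6 or *T* replicate 18. That of lipid-associated macrophages ran from -0.26 to 0.29 and was negative without *T* replicate 14 or *C* replicate 1. That of T and NK cells ran from -0.28 to 0.53 and was negative without *T* replicate 13 or 17, and that of B and plasma cells ran from -0.25 to 0.28 and was positive without *C* replicate 2, 5 or 6 or *T* replicate 18. Inflammatory cytokines and receptors gave 7 higher and 12 lower (median -0.07), with the interleukin-1 receptor gene IL1R1 at -0.43 and the alarmin gene IL33 at -0.86 (SEs 0.19 and 0.39), where IL33 stood at -0.35 without *C* replicate 4. Chemokines and receptors gave 9 higher and 5 lower (median 0.16). CCL18, a chemokine of alternatively activated macrophages, ran from 0.225 to 4.92 CPM in *C* and from 1.56 to 25.6 in *T* (log2 fold change 1.70, SE 0.68), and 0.41 in the low-share libraries. Interferon-stimulated genes gave 12 higher and 11 lower (median 0.04), with IFI6 at 0.93 (SE 0.42), carried by *T* replicates 14 and 15 at 366 and 145 CPM against 52.4 to 88.3 in *C*.

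Cytosolic ribosomal proteins were lower in 56 of 60 genes (median -0.16). An unadjusted p under 0.05 was reached by 6 of them (10%, near the 8.63% of all tested genes). RPS29, RPL38 and RPLP1 stood at -0.37, -0.36 and -0.30 (SEs 0.15, 0.14 and 0.13). Leaving out *C* replicates 1, 2, 3 and 5 in turn gave 0, 10, 1 and 24 genes at that level, and leaving out *T* replicates 14, 15 and 18 gave 3, 2 and 9. The number over all tested genes, 1312 in the main fit, moved as well. It was 869, 1714, 955 and 1876 without these *C* animals and 1065, 967 and 1506 without these *T* animals, in the same order. On the Western-style diet the list had a median of -0.30, with 36 genes lower at an unadjusted p under 0.05. There 19.98% of all tested genes reached this level, in either direction. Cell division genes were lower in 22 of 31 (median -0.44), with 0 at an unadjusted p under 0.05 by edgeR. In the low-share libraries alone the median was -0.91 with 10 lower genes at that level, where 1554 of all 15448 tested genes reached it. Proteasome subunits gave 12 higher and 20 lower (median -0.03), with the ATPase gene PSMC5 at 0.16 (SE 0.07), and heat shock and unfolded protein genes 11 and 13 (median -0.03). Immediate early genes were higher in 12 of 19 (median 0.20), with the transcription factor genes FOSB and FOSL1 at 1.53 and 1.74 (SEs 0.62 and 0.79). Glucocorticoid-induced genes were higher in 7 of 9 (median 0.15). Circadian clock genes were higher in 12 of 17 (median 0.14), with the heme-sensing repressor gene NR1D1 at 0.73 (SE 0.29).

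Markers of tissues that a biopsy could carry along were present at varied levels. The summed level of erythroid markers reached 35.9 CPM in *C* and 106 in *T*. Skeletal muscle markers summed to 22.5 to 33.1 CPM in *C* and 21.1 to 53.0 in *T*, and hepatocyte markers, which include plasma protein genes that fat also transcribes, to 37.7 to 526 and 162 to 1229. Pancreatic acinar markers summed to at most 1.71 CPM in any animal, with PRSS1 at 0. In these 4 lists 0 genes had an unadjusted p under 0.05 by edgeR, and the medians were 0.57, 0.67, 0.18 and 0.19. The lists are small, with 5, 5, 5 and 1 tested genes in the same order, so the last value is that of a single gene.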

How the data were processed

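Libraries were made from omental WAT RNA after ribosomal depletion and read from 1 end. The authors trimmed the reads with Trimmomatic 0.36, aligned them to rheMac8 with STAR 2.5.2b, per the labels and the study's methods, and deposited raw, unnormalized counts of reads per gene. The counting tool and its strand setting are not given in the sources used here. Symbols came from a gene name table and, for 211 tested genes, from identifier and name pairs in the study's supplementary tables.

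Here counts were normalized by TMM, filtered with filterByExpr (minimum count 10, minimum total 15) and compared by edgeR 4.0.16 under R 4.3.3 (glmQLFit, robust and legacy settings, two-sided F-test, 1 fit to all 24 animals, Benjamini-Hochberg adjustment over 15207 genes). DESeq2 1.42.0 was the main alternative tool. Standard errors were taken as the absolute log2 fold change over the square root of F. The script was tested on simulated data. Each library comes from 1 animal, and the 30 pairs of libraries within *C* and *T* differed by 70.3 to 654 chi-square units per degree of freedom.

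Members, lists and tests were chosen with earlier results of these data known. Named genes were every gene called by edgeR or DESeq2, the 12 higher and 12 lower genes with a symbol and the smallest p, up to 3 members per list with the smallest unadjusted p under 0.05, and 16 set genes. One further set gene is not reported here. The 47 lists hold 1022 distinct genes, of which 841 had an identifier and 803 were tested. Alternatives covered normalization, filters, tool, covariates, the libraries used and each animal left out in turn. Total counts per library ran from 8873248 to 28270776.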

Additional observations from a re-analysis of the deposited data

Results flagged for a closer look

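Within groups of 6, an animal was marked where its gap to the nearest other exceeded Dixon's 95% limit on log2 CPM, which chance alone does in about 1 in 20 groups. The search covered 85 named genes and 47 lists in each of *C* and *T*, so a number of marks are expected by chance alone. *C* replicate 1 was low in LGALS12 (34.5 CPM), CCL18 (0.225), HSD11B1 (0.281), LEP (4.39), LPL (682) and PPARG (52.6), and high in BMP4 (72.1). Its list means were low for adipocytes (7.12 log2 CPM), lipolysis and lipid droplet proteins (5.38) and respiratory chain subunits (5.25).

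*C* replicate 2 was low in COL4A3 (1.81 CPM) and high in the mean of the interferon-stimulated genes (5.53 log2 CPM). *C* replicate 5 was high in the means of the smooth muscle and pericyte list (7.15) and of the pancreatic acinar list (0.503), which rests on 1 tested gene. In *T*, replicate 17 was low in HCAR2 (15.6 CPM) and CCDC68 (1.997), replicate 16 high in VSIG10 (45.4) and IRS1 (244), replicate 14 low in ACTA2 (122) and replicate 13 high in IL1R1 (119).

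The effect of testosterone differed between the diets, by the edgeR interaction test at an adjusted p under 0.05, in 12 of the named genes. The difference, *T* + *WSD* minus *WSD* less *T* minus *C* on the log2 scale, was positive for LUC7L3 (1.0001), ENSMMUG00000012808 (1.97), Y_RNA (3.46), ANKRD10 (0.78), PNISR (0.79), SCN2A (2.93), MIR5047 (1.15), CCNL2 (0.69), MIR3064 (1.20) and SREK1 (0.69). It was negative for TM7SF2 (-1.75) and CETP (-3.36).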

How the results depend on the processing

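No paired analysis was possible because the labels number *C* 1 to 6 and *T* 13 to 18, with no shared number. The number of DEGs was 0 under the other normalizations and covariates, 7 with DESeq2, and 1 with at least 10 counts in every animal or at an adjusted p under 0.1. When 1 animal at a time was left out it was 0 to 1. Genes at an unadjusted p under 0.05 numbered 869 to 1876 in those fits, 702 with the adipocyte mean as a covariate, an alternative chosen after seeing the data, and 992 with only *C* and *T* fitted. Genes without overlap numbered 50 to 125 with 1 animal left out (117, 67 and 125 without *C* replicates 2, 4 and 5, and 123, 67, 83 and 72 without *T* replicates 13, 14, 17 and 18) and 721 in the low-share libraries, where fewer animals are compared. Interaction genes numbered 11 to 46 with 1 animal left out, 236 with DESeq2, 7 without a filter on low counts, 16 with the mesothelial and 13 with the adipocyte covariate, and 0 in the low-share libraries.

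Of 2110 alternative values of 85 named genes, 2081 kept their direction and side of the threshold, 13 values of 9 genes passed it and 16 values of 6 genes reversed. None of the 6 had an unadjusted p under 0.05 in the main analysis. No gene had an edgeR adjusted p under 0.05 there, so keeping the side of the threshold meant staying over it. The alternatives reuse the animals by which most named genes were picked, so these counts give no separate support. In the low-share libraries ESR1 was at 0.045, HSD11B1 at -0.43, LEP at -0.84 and LPL at -0.016. With the adipocyte covariate HSD11B1 was at -0.31, LEP at -1.03, LPL at -0.27 and PPARG at -0.047. With 1 animal left out the values ran from -0.041 to 0.29 for FKBP5, from -0.22 to 0.37 for HSD11B1, from -0.62 to 0.56 for LEP and from -3.65e-05 to 0.43 for LPL. The causes were not tested.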
